A study of Gallus gallus with 28 samples.

Results

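The 5 genes considered were EGR1, FOS, JUN, FOSL2 and BTG2, taken by name from a table of expression values with 17684 features. The table had a row for 4 of them. FOS had no row under that name and was not analysed here. All 4 measured genes passed the filter on low values, which left 12195 features to test. The tissue was the basilar papilla of the chicken, the hearing organ of the bird inner ear. Per the labels, papillae were exposed for 24 h to streptomycin, an aminoglycoside toxic to hair cells, and then given 0, 24, 48, 72, 96, 120, 144 or 168 h of recovery, and total RNA was sequenced. The comparison group at each time had no treatment. The 28 samples analysed were 15 treated and 13 control samples in 16 groups of treatment and time. In 12 groups there were 2 samples, and 4 groups held 1 sample, namely the controls at 72, 96 and 120 h and the treated papillae at 96 h. The design text calls the samples of a time biological. Strain, age, sex and the number of papillae per sample are not stated in the labels, and p-values measure the spread between these samples.

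Immediate early genes are transcribed within minutes of a stimulus and need no new protein synthesis to be switched on. Growth factors, calcium, stress and mechanical injury reach them through the mitogen-activated protein (MAP) kinases ERK, JNK and p38, which act on factors such as SRF with its ELK partners and CREB. EGR1 is a zinc finger transcription factor. JUN is the core subunit of the AP-1 transcription factor, FOSL2 is a FOS family protein that binds DNA only as a partner of JUN proteins, and FOS is the member of that family with the briefest induction. BTG2 is an antiproliferative protein that works with the CCR4-NOT complex, which shortens the tails of messenger RNAs, and it is also a target gene of p53. Their messengers are short-lived, and the phosphatases and adaptors that shut the MAP kinases down again are induced by the same route.

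Values are RPKM, reads scaled to transcript length and to the mapped reads of the library. The samples had between 16.48 and 38.17 M (mega) alignments each, with a median of 19.85 M. Replicate libraries of a group correlated across features with r between 0.971 and 0.988, and none were identical. At 0 to 48 h replicate 1 was the deeper library, with 25.14 to 35.23 M alignments in controls and 22.73 to 28.95 M in treated papillae, against 19.29 to 19.96 and 19.18 to 20.84 M in replicate 2. The labelled tissue carried its markers. The summed RPKM of 15 measured hair cell markers lay between 590.3 and 1173.7 in the 6 early controls, and between 113.8 and 134.6 in the 6 early treated samples. The 13 measured supporting cell markers summed to between 1025.5 and 2193.7 in those controls and to between 1324.3 and 2201.3 in the treated samples. Although these sums overlapped, limma called 11 of the 13 supporting cell markers higher and 1 lower in treated papillae at 0 to 48 h. Their median log2 difference was 0.99. Of the 15 hair cell markers 13 were called lower, with a median of −3.33. Of all tested features, 27.6% were called higher and 23.5% lower in that window. By 120 to 168 h these sums had moved in both arms, to between 170.4 and 372.5 for hair cells and between 268.8 and 389.8 for supporting cells in controls, and to between 41.9 and 62.4 and between 273.0 and 433.8 in treated papillae. These are bulk samples, so fewer cells of a type and less RNA per cell cannot be told apart, and every level below is a mean over whatever cells each sample held.

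By level, JUN stood far above the others. Its mean in the 2 windows and 2 arms lay between the 98.1 and 99.2 percentile of all tested features, while EGR1, FOSL2 and BTG2 lay between the 85.0 and 97.2 percentile. None of the 4 was near the detection limit in any sample. Replicates of a group differed by a median ratio of 1.2 for EGR1, 1.12 for JUN, 1.25 for FOSL2 and 1.29 for BTG2. The widest gap was 3.1 for EGR1, between the replicates treated and recovered for 72 h.

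EGR1 did not differ past the threshold at 0 h (0.19, limma adjusted p = 0.78), fell in the controls within a day, and was higher in treated papillae at 24, 48 and 72 h. In controls it was 104.1 and 74.9 RPKM at 0 h, 22.6 and 23.9 at 24 h, 18.7 and 16.2 at 48 h and 14.6 in the single sample at 72 h. In treated papillae it was 92.7 and 109.9 RPKM at 0 h, 110.7 and 130.4 at 24 h, 54.7 and 43.9 at 48 h, and 35.5 and 110.2 at 72 h. The groups overlapped at 0 h, and from 24 to 72 h every treated sample was above every control of its time. At 72 h that control was a single sample, and no share of all features is given here for that time. Both treated samples were above both controls in 32% of features at 24 h and in 37.8% at 48 h. At 24 h the treated mean was 5.18 times the control mean, a difference of 2.32 ± 0.41 (SE) in log2(RPKM + 1) (limma adjusted p = 0.000353). At 48 h it was 1.44 ± 0.41 (adjusted p = 0.0154), and this call was lost without treated replicate 1 (1.29, adjusted p = 0.102), control replicate 1 (1.54, adjusted p = 0.0529) or control replicate 2 (1.34, adjusted p = 0.0955). At 72 h the difference of 2.03 ± 0.50 (adjusted p = 0.0128) rested on treated replicate 2, since it was 1.22 without that library. A replicate block within each time gave the same 1.22 by design and is no second check. With a single control at 72 h, that block sets treated replicate 1 alone against the control.

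From 96 h the control values of EGR1 lay above those at 48 and 72 h, and the treated values were lowest at 144 h. Control values were 40.1 RPKM at 96 h, 37.4 at 120 h, 35.4 and 76.2 at 144 h and 23.4 and 50.9 at 168 h. Treated values were 38.1 RPKM at 96 h, 43.5 and 36.1 at 120 h, 21.0 and 18.2 at 144 h and 32.3 and 35.5 at 168 h. The arms overlapped at 120 and 168 h, and both treated samples were below both controls at 144 h, as were 28.1% of all features. The 144 h difference was −1.37 ± 0.41 with an adjusted p of 0.059. It passed with a replicate block within each time (adjusted p = 0.00934), with the sample number as a block (adjusted p = 0.0359) and after rescaling the libraries (adjusted p = 0.044). It also passed without 5 of the 28 libraries, each left out in turn. Without control replicate 1 at 144 h the difference was −1.91. Between replicates of the same number it was −0.73 for replicate 1 and −2.01 for replicate 2, so its size rested largely on control replicate 2 (76.2 RPKM). Ordered by group mean, the controls ran from 89.5 RPKM at 0 h through 55.8 at 144 h down to 14.6 at 72 h, and the treated groups from 120.6 at 24 h down to 19.6 at 144 h. Of the 7 pairs of neighbours in that order, 4 overlapped in controls and 3 in treated papillae. Such counts, here and for the other genes, come from sorting the same values. No share of all features is given for them. The controls at 96 and 120 h, neighbours in that order, held 1 sample each and so could not overlap.

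BTG2 also fell in the controls within a day and was higher in treated papillae at 24 and 48 h. Control BTG2 was 84.7 and 69.7 RPKM at 0 h, 15.9 and 22.2 at 24 h, 28 and 25.3 at 48 h and 41.7 at 72 h. Treated BTG2 was 76.5 and 125.6 RPKM at 0 h, 124.8 and 158.4 at 24 h, 96.9 and 84.8 at 48 h, and 42.0 and 99.2 at 72 h. The arms overlapped at 0 h and were apart at 24 and 48 h, where the lowest treated value was far above the highest control value. Both treated samples were above both controls in 32% of features at 24 h and in 37.8% at 48 h. The 24 h ratio of means was 7.43, with a log2 difference of 2.84 ± 0.33 (limma adjusted p = 7.26e-06). At 48 h the difference was 1.73 ± 0.33 (adjusted p = 0.00105). At 72 h it was 0.62 (adjusted p = 0.336), and 1.23 without treated replicate 1 (adjusted p = 0.0398). The 72 h values of both genes thus turned on which treated library was kept.

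From 120 h the mean of control BTG2 was again near that at 0 h, and at 96 h its single sample was below both 0 h samples. The controls had 56.8 RPKM at 96 h, 70.7 at 120 h, 64.9 and 94.5 at 144 h and 59.9 and 96.6 at 168 h, and the treated samples had 54.8, then 51.6 and 65.7, then 53.4 and 59.9, then 56.1 and 72.9. Treated values were below the control values at 96, 120 and 144 h, and the arms overlapped at 168 h. At 144 h the same held for 28.1% of all features, and at 96 and 120 h there was a single control sample. The control order was topped by 144 h (79.7), 168 h (78.3) and 0 h (77.2), which overlapped, and ended with 24 h (19.1), which was separate from its neighbour. In treated papillae all 7 pairs of neighbours in the order overlapped, though both 24 h samples (124.8 and 158.4) were above every treated sample from 96 h on.

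JUN was raised in treated papillae at 0 h, where EGR1 and BTG2 showed no difference past the threshold. Control JUN was 279.2 and 261.1 RPKM at 0 h, 210.5 and 430.4 at 24 h, 232.7 and 253.2 at 48 h and 249.9 at 72 h. Treated JUN was 451.9 and 448.8 RPKM at 0 h, 394.9 and 561.2 at 24 h, 296.8 and 278.0 at 48 h and 314.4 and 383.0 at 72 h. At 0 and 48 h both treated samples were above both controls, as were 38.8% and 37.8% of features. At 24 h the groups overlapped because control replicate 2 stood at 2.04 times control replicate 1. In 24 h control replicates 1 and 2, erythrocyte markers summed to 5.42 and 59.7 RPKM and leukocyte markers to 64.9 and 123.0. Supporting cell sums were closer, at 1637.2 and 1865.3 RPKM. The part of these markers in the JUN gap was not tested. The 0 h ratio of JUN means was 1.67 and the difference 0.74 ± 0.24 (limma adjusted p = 0.0328). That call was lost when any of the 4 libraries of that time was left out, with values between 0.69 and 0.78, and under rescaling (0.57, adjusted p = 0.0545) or with no filter on low values (adjusted p = 0.0532). The 24 h difference of 0.64 ± 0.24 (adjusted p = 0.0455) was 0.13 without control replicate 1 (adjusted p = 0.679) and 0.39 without treated replicate 2 (adjusted p = 0.326). It missed the threshold without 18 of the 28 libraries in turn, with no filter on low values (adjusted p = 0.0722) and after rescaling (0.54, adjusted p = 0.052).

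In later samples JUN changed little in controls and went down in treated papillae. The controls held 207.0 RPKM at 96 h, 240.0 at 120 h, 210.6 and 218.5 at 144 h and 212.9 and 210.6 at 168 h. The treated samples held 252.0 RPKM at 96 h, 226.5 and 196.4 at 120 h, 171.5 and 197.6 at 144 h and 150.8 and 188.2 at 168 h. From 120 h onwards every treated sample was below every control of its time, by amounts that did not pass the test at any of those times. At 144 h 28.1% of all features had both treated samples below both controls. The control at 120 h was a single sample, and no such share is given here for 120 and 168 h. The treated order ran from 478.0 RPKM at 24 h to 169.5 at 168 h with 4 of 7 neighbours separate, a count without a share of all features. In that order the 96 h group was a single sample, which makes separation easier.

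FOSL2, the FOS family member with a row, passed at none of the single times. Its control values were 59.8 and 55.7 RPKM at 0 h, 46.1 and 52.9 at 24 h, 53.2 and 53 at 48 h, 44.8 at 72 h, 49.7 at 96 h, 52.8 at 120 h, 62.1 and 46.0 at 144 h and 57.5 and 41.0 at 168 h. Its treated values were 61.4 and 54.7 RPKM at 0 h, 36.8 and 45.3 at 24 h, 66.1 and 63.5 at 48 h, 74.4 and 57.3 at 72 h, 60.8 at 96 h, 57.7 and 42.6 at 120 h, 46.8 and 28.9 at 144 h and 50.9 and 40.3 at 168 h. Both treated samples were below both controls at 24 h, as were 30.6% of features, and above them at 48 h, as were 37.8%. At 72 and 96 h the treated values were also above the control, a single sample at each time. No share of all features is given here for 72 and 96 h. The arms overlapped at 0, 120, 144 and 168 h. With a replicate block within each time FOSL2 passed at 144 h (−0.53, limma adjusted p = 0.00913). At 48 h it passed with only the compared samples in the fit (0.28, adjusted p = 0.0429). At 72 h the blocked value of 0.72 set treated replicate 1 alone against the single control and left out treated replicate 2. Without the block FOSL2 differed by 0.53 ± 0.28 at 72 h. Of its 7 pairs of neighbours in the order of means, 5 overlapped in controls and 6 in treated papillae. Here too the controls at 96 and 120 h were neighbours with 1 sample each and could not overlap.

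**Figure D1:**
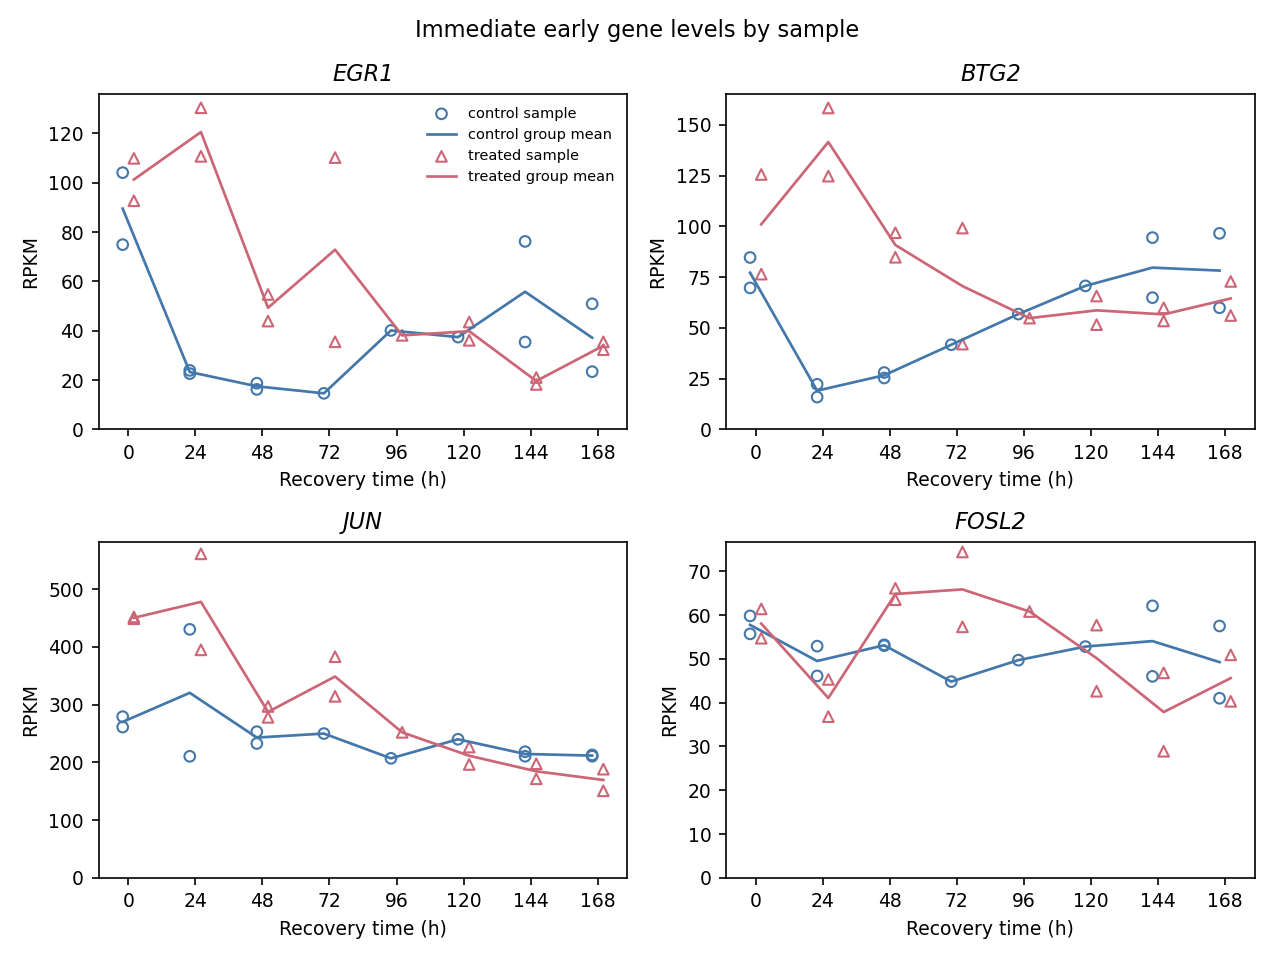
RPKM of EGR1, BTG2, JUN and FOSL2 against recovery time in hours, with 1 open symbol per sample (circles control, triangles treated) and lines through the group means. Control EGR1 dropped from 104.1 and 74.9 to 22.6 and 23.9 RPKM by 24 h while treated EGR1 was 110.7 and 130.4, and FOSL2 stayed between 28.9 and 74.4 in all 28 samples.

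The 4 genes, and the lists below, were chosen with earlier results of these data known. Counts of members called, set beside a share of all features, are therefore descriptions and no independent test. At 24 h, 3 of the 4 genes were called higher in treated papillae, beside 18.4% of all tested features. At 48 h, 2 were called higher, beside 13.8% of features. At 0 h it was JUN alone (14.6% of features were higher) and at 72 h EGR1 alone (6.25%). At 96, 120, 144 and 168 h limma called none, at a background of 3.93%, 2.55%, 5.88% and 1.16% of features. At an unadjusted p under 0.05 that count was 0 at 96, 120 and 168 h and 2 at 144 h. Those 2 were EGR1 and FOSL2, both lower after treatment. No share of all features at an unadjusted p under 0.05 is given here, so such counts have no background.

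**Figure D2:**
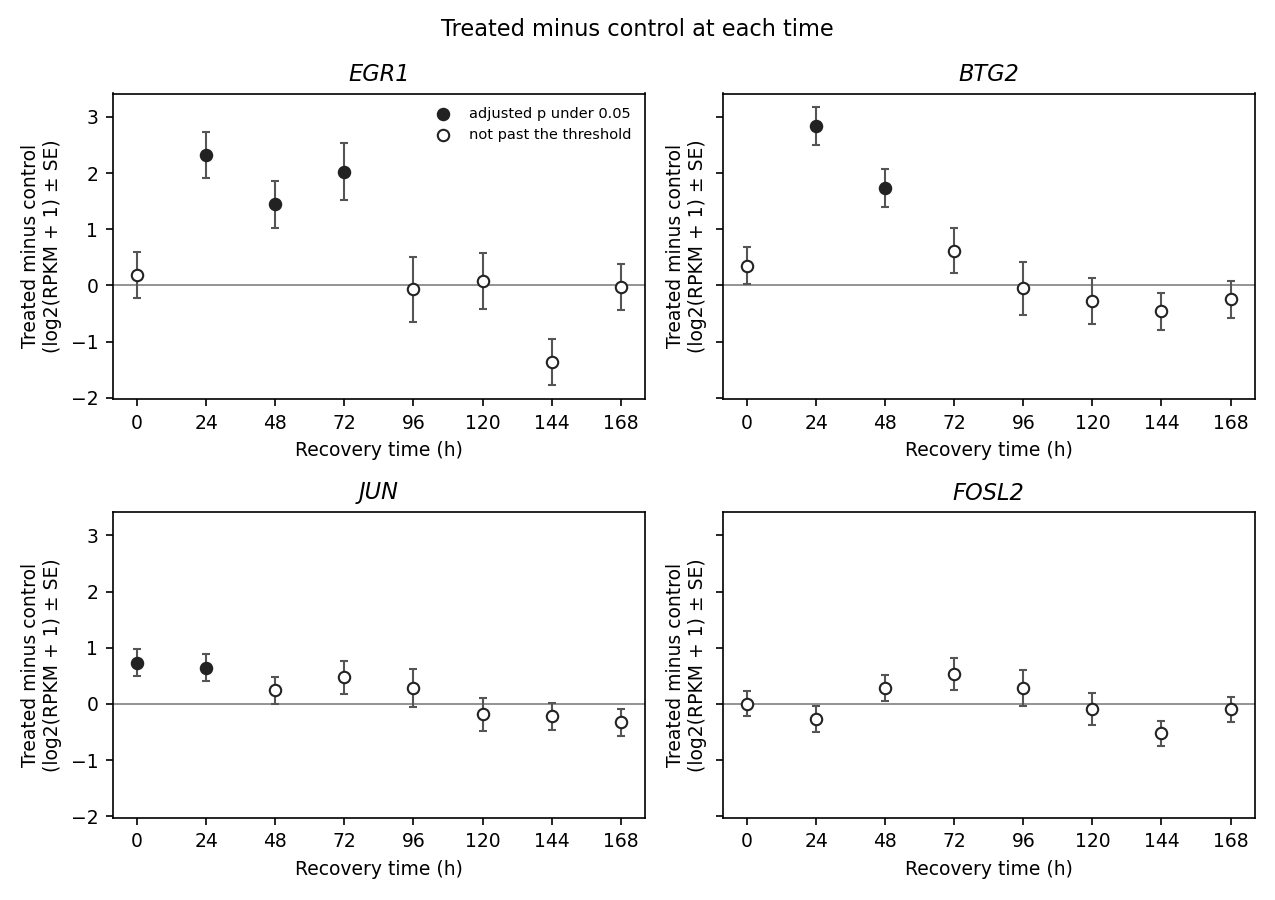
Treated minus control difference in log2(RPKM + 1), with its SE, against recovery time in hours for each of the 4 genes, filled where the limma adjusted p was under 0.05. EGR1 and BTG2 peaked at 24 h with 2.32 and 2.84, while JUN was already at 0.74 at 0 h.

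EGR1 and BTG2 fell in the controls over the first day and did not pass in either direction in the treated papillae. From 0 to 24 h, control EGR1 changed by −1.88 ± 0.41 (limma adjusted p = 0.00334) and control BTG2 by −1.97 ± 0.33 (adjusted p = 0.000493). These 2 of 4 genes were called lower, beside 11.5% of features, and control JUN (0.16 ± 0.24, adjusted p = 0.686) and FOSL2 (−0.22 ± 0.23, adjusted p = 0.518) did not pass. JUN passed as higher (0.67, adjusted p = 0.0349) without control replicate 1 at 24 h.

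Over the same day no gene passed in the treated papillae by limma, beside 1.81% of features, and 1 had an unadjusted p under 0.05. EGR1 changed by 0.25 ± 0.41 (adjusted p = 0.907), BTG2 by 0.52 ± 0.33 (adjusted p = 0.595) and JUN by 0.06 ± 0.24 (adjusted p = 0.974). FOSL2 changed by −0.50 ± 0.23 (adjusted p = 0.37), a fall that passed with a replicate block within each time (adjusted p = 0.0211). The difference between the arms in this step was tested directly. It was 2.49 ± 0.47 for BTG2 (adjusted p = 0.00391) and 2.13 ± 0.58 for EGR1 (adjusted p = 0.0286), so 2 of 4 genes were called higher beside 3.85% of features. The EGR1 call was lost with no filter on low values (adjusted p = 0.0585) and when any of 7 of the 8 libraries at 0 and 24 h was left out, at values between 1.90 and 2.25. The exception was control replicate 2 at 0 h. The step in controls and the 24 h contrast share the 24 h control samples. In those controls the summed hair cell markers went from 1161.8 and 1173.7 RPKM at 0 h to 590.3 and 691.7 at 24 h, whereas in treated papillae they were between 117.3 and 134.6 at both times. Of the 13 supporting cell markers, 8 fell and 1 rose in controls over this day, beside 11.5% and 14.4% of features. Their median in controls was −0.89. In treated papillae limma called none of these markers, their median was −0.27 and 4 had an unadjusted p under 0.05. The step of the arms differed for 4 of these 13, all higher, with a median of 0.76. The part of these marker changes in the fall of EGR1 and BTG2 was not tested.

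**Figure D3:**
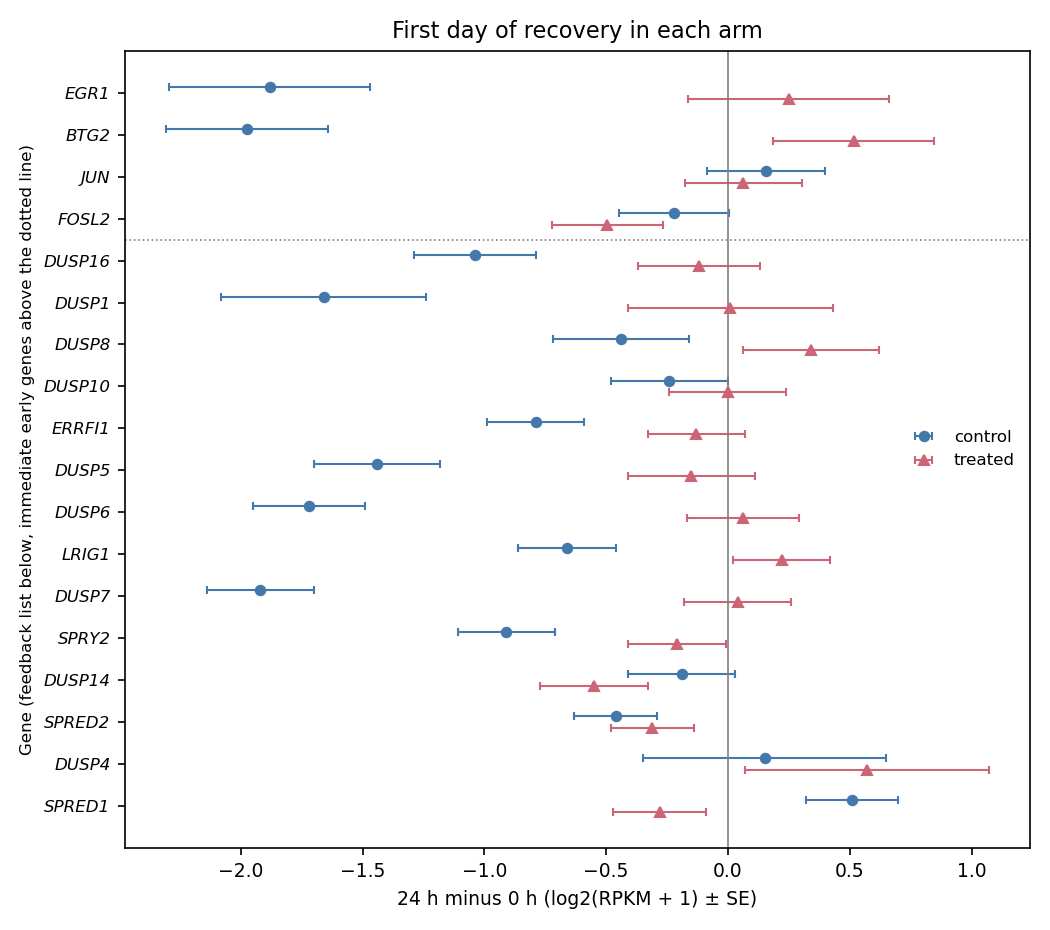
Change from 0 to 24 h in log2(RPKM + 1), with its SE, in controls (circles) and treated papillae (triangles), for the 4 immediate early genes and, under the dotted line, 14 feedback inhibitors of MAP kinase signalling. EGR1 and BTG2 lie at −1.88 and −1.97 in controls and at 0.25 and 0.52 in treated papillae, and the control and treated changes were 0.16 and 0.06 for JUN and −0.22 and −0.50 for FOSL2.

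Over the first 48 h as a whole, 3 of the 4 genes were higher in treated papillae, beside 27.6% of features called higher and 51.1% called in either direction. EGR1 averaged 90.4 ± 34.2 RPKM (SD, n = 6) in treated and 43.4 ± 37.0 (SD, n = 6) in control samples, and the mean of the contrasts at the 3 times was 1.32 ± 0.24 (limma adjusted p = 0.000201). BTG2 averaged 111.2 ± 30.7 against 40.9 ± 28.7 RPKM, with a difference of 1.64 ± 0.19 (adjusted p = 2.47e-06). JUN averaged 405.3 ± 106.2 against 277.9 ± 78.4 RPKM, with a difference of 0.54 ± 0.14 (adjusted p = 0.00377). Set against the control mean of its own time, treated EGR1 and JUN were higher in 6 of 6 samples and treated BTG2 in 5 of 6, with no share of all features given here. The calls held without any single library. Between replicates of the same number the mean difference was 1.19 and 1.45 for EGR1, 1.5 and 1.78 for BTG2 and 0.65 and 0.43 for JUN, for replicates 1 and 2. FOSL2 averaged 54.6 ± 11.5 against 53.5 ± 4.49 RPKM. Its difference of 0.01 ± 0.13 (adjusted p = 0.973) had a 95% interval of −0.27 to 0.28, and 3 of 6 treated samples were above their control mean.

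Rescaling each library by a median of ratios moved all features by 0.12 at 0 to 48 h, which took JUN and the others down by that amount without ending a call and turned FOSL2 to −0.11. The markers of several other cell types also differed in these 12 samples. In treated papillae the 7 neuron markers summed to between 43.2 and 97.3 RPKM against 185.3 to 250.2 in controls, the 11 muscle markers to between 6.69 and 22.2 against 41.3 to 62.7, and the 9 endothelium markers to between 5.42 and 14.4 against 14.7 to 31.1. Sums of the 7 erythrocyte markers overlapped, at 1.14 to 17.1 RPKM in treated and 4.98 to 59.7 in control samples, with HBZ at 0 in all of them, and so did glial sums, at 54.0 to 86.0 and 56.7 to 124.5. Leukocyte sums overlapped too, at 49.4 to 90.9 RPKM in treated and 64.9 to 179.9 in control samples. The part of these markers, and of the higher supporting cell markers given above, in the values of the 4 genes was not tested.

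At 120 to 168 h none of the 4 genes was called by limma, beside 19.4% of features, and none had an unadjusted p under 0.05. All 4 mean levels were lower in the treated samples. EGR1 averaged 31.1 ± 9.68 RPKM (SD, n = 6) in treated and 44.7 ± 20.1 (SD, n = 5) in control samples (−0.44 ± 0.26, adjusted p = 0.249). BTG2 averaged 59.9 ± 8.09 against 77.3 ± 17.1 RPKM (−0.33 ± 0.21, adjusted p = 0.291). Its difference passed with a replicate block within each time (−0.39, adjusted p = 0.0411). At 120 h that block set treated replicate 1 alone against the single control. JUN averaged 188.5 ± 25.7 against 218.5 ± 12.4 RPKM (−0.24 ± 0.15, adjusted p = 0.279), and FOSL2 averaged 44.5 ± 9.86 against 51.9 ± 8.51 RPKM (−0.24 ± 0.14, adjusted p = 0.259). No treated sample exceeded the control mean of its time for BTG2 or JUN, 1 of 6 did for EGR1 and 2 of 6 for FOSL2. The share of all features with such counts is not given here. Leukocyte markers summed to between 340.2 and 441.6 RPKM in the late controls and between 138.7 and 340.6 in the late treated samples, and glial markers to between 209.0 and 268.2 and between 111.4 and 180.0. Of the hair cell markers 14 of 15 were lower in this window, and of the leukocyte markers 10 of 14. Of the 13 supporting cell markers 4 were higher and 1 lower. Among all tested features, 4.31% were called higher and 15.1% lower. The part of these markers was not tested.

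The effect of treatment therefore differed between the windows for 3 of the 4 genes, which had a lower late than early difference beside 21.9% of features. The late less early difference was −1.97 ± 0.28 for BTG2 (limma adjusted p = 8.1e-05), −1.76 ± 0.35 for EGR1 (adjusted p = 0.00117) and −0.78 ± 0.21 for JUN (adjusted p = 0.00734). For FOSL2 it was −0.24 ± 0.19 (adjusted p = 0.345). Averaged over all 8 times, 1 of 4 genes was called, beside 41.9% of features. BTG2 was higher by 0.65 ± 0.26 (adjusted p = 0.0458), above its control mean in 7 of 15 treated samples, and the call was lost with no filter on low values (adjusted p = 0.0726), after rescaling (adjusted p = 0.0617), with either replicate block (0.62, adjusted p = 0.0557, and 0.61, adjusted p = 0.119) and without any of 14 single libraries. EGR1 differed by 0.57 ± 0.28 (adjusted p = 0.1), and passed when each time counted equally (adjusted p = 0.00777) and without control replicate 2 (0.73, adjusted p = 0.0245) or treated replicate 2 (0.68, adjusted p = 0.0482) at 144 h. JUN differed by 0.21 ± 0.12 (adjusted p = 0.161) and FOSL2 by −0.02 ± 0.10 (adjusted p = 0.861).

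Each arm was also followed over time on its own. In treated papillae 3 of 4 genes fell from 0 to 48 h to 120 to 168 h, beside 29.9% of features, with −1.47 ± 0.24 for EGR1 (limma adjusted p = 5.27e-05), −1.07 ± 0.14 for JUN (adjusted p = 5.44e-06) and −0.85 ± 0.19 for BTG2 (adjusted p = 0.0012). FOSL2 changed by −0.29 ± 0.13 (adjusted p = 0.0696), and passed with the sample number as a block (adjusted p = 0.0299) and with a block within each time (adjusted p = 0.00145). It passed too without treated replicate 1 at 120 h (−0.36, adjusted p = 0.0366), 144 h (−0.40, adjusted p = 0.0131) or 168 h (−0.35, adjusted p = 0.0471). Over the same span in treated papillae 12 of 13 supporting cell markers were lower, with a median of −1.37. Higher were 16 of 16 mesenchyme markers (median 1.69) and 13 of 14 leukocyte markers (median 1.53). The share of all features called higher over that span in treated papillae is not given here. The late mesenchyme sums were 326.2 to 560.3 RPKM in treated and 275.9 to 659.6 in control samples. The part of these shifts in the fall of the 3 genes was not tested. In controls BTG2 rose by 1.12 ± 0.21 (adjusted p = 0.000256) and was the 1 gene of 4 called, beside 28.7% of features called higher. Control EGR1 changed by 0.29 ± 0.26 (adjusted p = 0.374), with its high at 0 h and its low at 48 and 72 h. Control JUN changed by −0.28 ± 0.15 (adjusted p = 0.13), which passed without replicate 1 at 24 h (−0.46, adjusted p = 0.00369), after rescaling (−0.36, adjusted p = 0.0311) and with a block within each time (−0.32, adjusted p = 0.0108).

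Comparisons chosen after the values were seen separated 0 h from the rest. Against 24 and 48 h, the late controls were higher in EGR1 by 0.98 ± 0.28 (limma adjusted p = 0.00866) and in BTG2 by 1.70 ± 0.23 (adjusted p = 1.4e-05), 2 of 4 genes beside 26.9% of features. The late treated samples were lower than at 24 and 48 h in EGR1, JUN and BTG2, by −1.34, −0.97 and −0.91, beside 27.1% of features. With a block within each time control JUN (−0.32, adjusted p = 0.0169) and treated FOSL2 (−0.24, adjusted p = 0.0119) passed as well. From 0 to 168 h, treated EGR1 changed by −1.55 ± 0.41 (adjusted p = 0.00624) and treated JUN by −1.41 ± 0.24 (adjusted p = 0.000187), 2 of 4 genes beside 21.5% of features called lower. Control EGR1 changed by −1.33 ± 0.41 over that span (adjusted p = 0.019), the 1 gene of 4 called lower beside 13.3% of features. That call was lost without control replicate 1 at 0 h (−1.09, adjusted p = 0.139) or at 168 h (−0.78, adjusted p = 0.236). Treated BTG2 changed by −0.61 (limma adjusted p = 0.155, or 0.0187 with a block within each time). Treated FOSL2 changed by −0.35 (adjusted p = 0.237, or 0.0175 with that block). Control BTG2 changed by −0.01, with a 95% interval of −0.71 to 0.69, so a change of that size in either direction remained possible.

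A test of any change over the 8 times called EGR1 (F = 6.79, limma adjusted p = 0.00283) and BTG2 (F = 10.2, adjusted p = 0.000421) in controls, 2 of 4 genes beside 44% of features. Control JUN (F = 1.06, adjusted p = 0.524) and FOSL2 (F = 0.35, adjusted p = 0.939) did not pass, though JUN did without control replicate 1 at 24 h (F = 4.53, adjusted p = 0.0194) and with a block within each time (F = 3.56, adjusted p = 0.049). In treated papillae all 4 were called, beside 45% of features, with F = 10.7 for JUN (adjusted p = 0.000292), 8.18 for EGR1 (adjusted p = 0.00112), 3.91 for BTG2 (adjusted p = 0.0261) and 3.55 for FOSL2 (adjusted p = 0.0364). The BTG2 and FOSL2 calls were lost with no filter on low values (adjusted p = 0.0675 and 0.0698) and with only the treated samples in the fit (0.0619 and 0.0834). Without treated replicate 1 at 24 h they were lost too (0.0575 and 0.0648). BTG2 was also lost without treated replicate 2 at 24 h (0.129), and FOSL2 after rescaling (0.0636) and without 9 single libraries in all. The effect of treatment changed over time for BTG2 (F = 11.5, adjusted p = 0.000883) and EGR1 (F = 8.31, adjusted p = 0.00326), 2 of 4 genes beside 24.4% of features. For JUN (F = 2.67, adjusted p = 0.121) and FOSL2 (F = 1.86, adjusted p = 0.258) it passed with a block within each time (F = 7.63, adjusted p = 0.00833, and F = 9.43, adjusted p = 0.00442), and JUN also without control replicate 1 (F = 4.29, adjusted p = 0.0398) or 2 (F = 7.43, adjusted p = 0.00731) at 24 h.

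Among 23 other tested immediate early genes, of 40 listed, the early picture was mixed. Several well-known ones, among them FOSB, JUNB, EGR2, EGR3, IER2 and NR4A1, had no row under those names. DUSP1 was counted with the feedback inhibitors below. At 0 to 48 h, 8 were higher and 6 lower in treated papillae, with a median difference of 0.23 beside 0.032 over all tested features, of which 27.6% were called higher and 23.5% lower. KLF6, a zinc finger factor, was 128.2 ± 29.7 RPKM (SD, n = 6) against 54.3 ± 22.0 (SD, n = 6), higher by 1.28 ± 0.11 (limma adjusted p = 4.88e-08). RHOB, a small GTPase, was higher by 1.09 ± 0.14 (adjusted p = 6e-06). BHLHE40, a repressor tied to the circadian clock and to hypoxia, was 25.4 ± 3.56 against 68.5 ± 33.3 RPKM, lower by 1.27 on the log2 scale (adjusted p = 8.54e-05). Its means at 0, 24 and 48 h were 36.2, 102.2 and 67.0 RPKM in controls and 27.9, 22.0 and 26.4 in treated papillae. CTGF, a matricellular protein gene, was 46.9 ± 32.5 against 98.5 ± 25.4 RPKM (−1.27 ± 0.13, adjusted p = 6.01e-07). Members of this list thus differed between the arms in both directions.

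Late in recovery the same list had 2 higher and 6 lower genes, with a median of −0.17 beside −0.074 over all features, of which 4.31% were called higher and 15.1% lower. MAFF, a small MAF factor, was 138.0 ± 11.8 RPKM (SD, n = 6) against 71.3 ± 9.08 (SD, n = 5), higher by 0.99 ± 0.16 (limma adjusted p = 0.0005). Its means at 0, 24 and 48 h were 74.0, 396.8 and 299.6 RPKM in controls and 120.7, 118.7 and 120.0 in treated papillae. The MAFF difference thus had the other direction at 24 and 48 h. ATF3, a stress-induced factor of the ATF family, was higher by 0.47 ± 0.11 (adjusted p = 0.00556), at 246.0 ± 32.8 against 177.7 ± 12.7 RPKM. The matricellular genes CTGF (−1.09 ± 0.14, adjusted p = 6.32e-05) and CYR61 (−0.97 ± 0.18, adjusted p = 0.00142) were lower. From 0 to 24 h in controls, 3 of the 23 genes rose and 7 fell, beside 14.4% and 11.5% of features. In treated papillae 1 rose and none fell, beside 1.81% of features called, so that count was near the background, and that rise was lost without either treated library at 0 h or treated replicate 2 at 24 h. The 7 control falls became 3 without replicate 1 at 0 h, 4 without replicate 2 at 0 h and 2 without replicate 1 at 24 h.

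Most feedback inhibitors of MAP kinase signalling were higher early after streptomycin. Of 14 tested, 12 were higher and none lower in treated papillae at 0 to 48 h, beside 27.6% and 23.5% of features, with a median of 0.91 beside 0.032 over all features. The supporting cell markers moved with this list, with 11 of 13 higher at a median of 0.99, and their part in it was not tested. The number higher was 11 or 12 without any single library and under each other setting. DUSP16, a phosphatase of JNK and p38, was 136.4 ± 31.4 RPKM (SD, n = 6) against 35.3 ± 17.9 (SD, n = 6), and no treated sample (104.6 to 175.4) came near the highest control (58.1). Its difference was 2.03 ± 0.14 (limma adjusted p = 4.73e-09). DUSP1, itself an immediate early gene and a phosphatase of p38, JNK and ERK, was 169.9 ± 69.6 against 56.1 ± 39.4 RPKM, higher by 1.76 ± 0.24 (adjusted p = 1.59e-05). Its treated samples lay between 92.6 and 277.1 RPKM and its controls between 23.3 and 109.0, so the ranges over the 3 times overlapped. DUSP4 (−0.05, adjusted p = 0.904) and SPRED1 (−0.11, adjusted p = 0.412) did not pass.

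In the controls 8 of these 14 genes fell from 0 to 24 h and none rose, beside 11.5% and 14.4% of features, with a median of −0.73 beside 0.0 over all features. Without control replicate 1 at 0 h 5 fell. Of the 13 supporting cell markers 8 fell too. DUSP1 went from 102.8 and 109.0 RPKM to 23.3 and 45.9, and DUSP5, a nuclear phosphatase of ERK, from a mean of 45.0 to 15.8. In treated papillae limma called none of the 14 over this day, beside 1.81% of features, and 1, DUSP14, had an unadjusted p under 0.05. DUSP6 and DUSP7, ERK phosphatases chosen here after their values were seen, changed by −1.72 ± 0.23 (limma adjusted p = 9.55e-05) and −1.92 ± 0.22 (adjusted p = 3.58e-05) in controls and by 0.06 and 0.04 in treated papillae, and the steps of the arms differed (1.78 ± 0.33, adjusted p = 0.00341, and 1.96 ± 0.32, adjusted p = 0.00157). At 120 to 168 h, 2 of the 14 were higher and none lower, beside 4.31% and 15.1% of features. These were DUSP16 (0.65 ± 0.15, adjusted p = 0.00766), at 25.4 ± 4.85 against 15.6 ± 1.5 RPKM, and DUSP14 (0.48 ± 0.14, adjusted p = 0.0227). Without treated replicate 2 at 120 or 168 h, or control replicate 1 at 144 or 168 h, 1 of the 14 was higher. The late less early difference was lower for 10 of the 14, beside 21.9% of features, and for 8 of the 13 supporting cell markers.

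**Figure D4:**
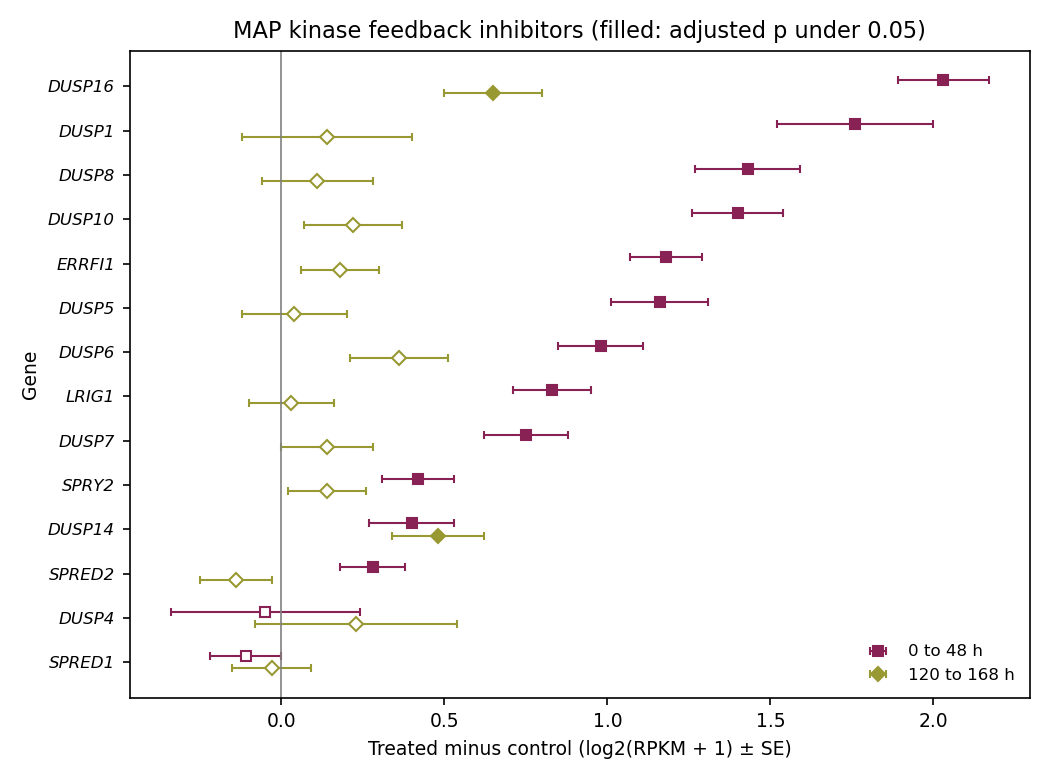
Treated minus control difference in log2(RPKM + 1), with its SE, for 14 feedback inhibitors of MAP kinase signalling at 0 to 48 h (squares) and 120 to 168 h (diamonds), filled where the limma adjusted p was under 0.05. The early values run from −0.11 to 2.03 with 12 of 14 filled, and the late values from −0.14 to 0.65 with 2 filled.

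Of 28 genes on the route to immediate early genes, 15 were higher and 3 lower at 0 to 48 h, beside 27.6% and 23.5% of features, with a median of 0.26. CREM, a relative of CREB, was higher by 0.87 ± 0.16 (limma adjusted p = 0.000196). Its means at 0, 24 and 48 h were 53.7, 23.0 and 24.7 RPKM in controls and 56.5, 59.6 and 58.7 in treated papillae. MAPK14, which encodes p38 alpha, was 23.2 ± 3.91 RPKM (SD, n = 6) against 14.4 ± 1.64 (SD, n = 6), higher by 0.64 ± 0.10 (adjusted p = 4.29e-05). MAPK10, the JNK gene typical of neurons, was 0.115 ± 0.0563 against 1.83 ± 0.303 RPKM (−1.34 ± 0.10, adjusted p = 5.41e-09). The neuron and hair cell marker sums given above were lower too, and their part in this difference was not tested. RPS6KA5, the kinase MSK1 that phosphorylates CREB, was lower by 0.63 on the log2 scale (adjusted p = 0.000585). Late in recovery 4 were higher and 4 lower, beside 4.31% and 15.1% of features, so the number lower was at the background. RPS6KA2 (0.64 ± 0.15, adjusted p = 0.00766) and MAP3K5 (0.48 ± 0.13, adjusted p = 0.0136), kinases of the ERK and stress routes, had the largest positive differences. MAPK10 (−0.40 ± 0.10, adjusted p = 0.0125) and CREB1 (−0.39 ± 0.10, adjusted p = 0.0123) had the largest negative differences. Late MAPK10 was low in both arms, at a mean of 0.208 RPKM in treated and 0.564 in control samples.

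Of 15 tested partners of the 4 proteins, 8 were higher and none lower at 0 to 48 h, beside 27.6% and 23.5% of features, with a median of 0.27. Under other choices 1 or 2 were lower, namely under 5 other settings and without any of 7 single libraries. The strongest were subunits of the CCR4-NOT complex that BTG2 works with. The deadenylase CNOT6 was higher by 0.84 ± 0.10 (limma adjusted p = 3.15e-06), at 29.0 ± 3.74 RPKM (SD, n = 6) against 16.2 ± 4.88 (SD, n = 6). The subunit CNOT2 was higher by 0.71 ± 0.08 (adjusted p = 9.35e-07). In the late window 1 was higher and 1 lower, beside 4.31% and 15.1% of features, so both counts were near the background. BATF, an AP-1 family protein, differed by 0.45 ± 0.14 (adjusted p = 0.03) at levels of 1.14 and 0.625 RPKM, and TOB1, a relative of BTG2, by −0.39 ± 0.10 (adjusted p = 0.0137). The number higher was 0 without any of 5 single libraries, and the number lower was 2 without either control at 24 h or treated replicate 2 at 168 h.

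Of 12 other tested p53 target genes, 5 were higher and 2 lower at 0 to 48 h, with a median of 0.21. With 27.6% of features higher and 23.5% lower, these counts were not far from the background. PLK2, a polo-like kinase gene that is also serum-inducible, was 47.6 ± 13.6 RPKM (SD, n = 6) against 15.1 ± 5.45 (SD, n = 6), higher by 1.60 ± 0.13 (limma adjusted p = 3.94e-08). CCNG1, cyclin G1, was higher by 0.54 ± 0.09 (adjusted p = 0.000116). TP53INP1 (−0.50 ± 0.09, adjusted p = 0.00011) and the death receptor gene FAS (−0.49 ± 0.14, adjusted p = 0.00614) were lower in treated papillae. At 120 to 168 h, 2 were higher, beside 4.31% of features, SESN1 (0.49 ± 0.12, adjusted p = 0.0074) and CCNG1 (0.29 ± 0.10, adjusted p = 0.0479), and 3 lower, beside 15.1%, led by TP53INP1 (−0.58 ± 0.09, adjusted p = 0.000373) and FAS (−0.44 ± 0.15, adjusted p = 0.0448). The number higher was 1 without any of 15 single libraries, and without control replicate 1 at 168 h 1 was lower.

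Of 18 tested genes reported elsewhere as AP-1 or EGR targets, 6 were higher and 9 lower at 0 to 48 h, beside 27.6% and 23.5% of features, with a median of −0.31. The number higher was near the background. PLAU, the urokinase plasminogen activator gene, was 43.6 ± 30.4 RPKM (SD, n = 6) against 11.2 ± 5.56 (SD, n = 6), higher by 1.71 ± 0.13 (limma adjusted p = 1.94e-08). F3, tissue factor, was 579.2 ± 116.1 against 286.2 ± 100.5 RPKM (1.07 ± 0.12, adjusted p = 2.23e-06). SPP1, osteopontin, was 42.6 ± 11.7 against 249.6 ± 103.6 RPKM (−2.47 ± 0.27, adjusted p = 9.57e-07), and FN1, fibronectin, 32.5 ± 22.8 against 106.3 ± 39.5 RPKM (−1.85 ± 0.29, adjusted p = 6e-05). At 120 to 168 h, 1 was higher and 3 lower, both near the 4.31% and 15.1% of all features, with PLAU at 1.18 ± 0.15 (adjusted p = 3.1e-05), SPP1 at −1.66 ± 0.29 (adjusted p = 0.00073) and FN1 at −1.27 ± 0.32 (adjusted p = 0.0097). Without either treated library at 120 h 2 were higher. The mesenchyme markers, which are genes of matrix-rich cells, summed to between 107.8 and 321.1 RPKM in early controls and between 51.5 and 200.9 in early treated samples, and their part was not tested.

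Across the 28 samples, which share their arms and times, EGR1 and BTG2 were the most alike pair of the 4, with Pearson r = 0.79 on log2(RPKM + 1). EGR1 and JUN had r = 0.61 and JUN and BTG2 r = 0.334, and FOSL2 had r = 0.161 with EGR1, 0.244 with JUN and −0.072 with BTG2. Among 8932 candidate genes the 3 most like EGR1 were GFPT2, an enzyme gene of hexosamine synthesis (r = 0.899), DUSP1 (0.893) and KLF6 (0.883). Those most like BTG2 were DUSP5 (0.925), PHACTR4 (0.918) and TRIM25 (0.911), and those most like JUN were PRDM10 (0.923), the Mediator subunit gene MED12 (0.922) and SMG6 (0.912). For FOSL2 the highest values were lower, with WDTC1 at 0.763, BCL2 at 0.697 and IGF1R at 0.691. GFPT2 was picked by its r with EGR1 in these same samples, so its likeness to EGR1 is no separate result. Its levels in controls were 84.2 ± 14.9 RPKM (SD, n = 2) at 0 h and 26.7 ± 2.01 (SD, n = 2) at 24 h. In treated papillae they were 89.0 ± 8.82 and 89.9 ± 14.1 (SD, n = 2 each) at those times.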

How the data were processed

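RNA sequencing of chicken basilar papilla gave 28 samples with a matched column. The authors deposited RPKM values in 1 table, and 4 further columns matched no sample and were not used. TopHat 1.4.0 and Partek 6.6 appear in the submitters' processing notes without roles. The labels and headers name no genome build, annotation, RPKM denominator or strand handling (not given in the sources used here), and reads of overlapping antisense genes cannot be told apart. Depth is given as alignments per sample, per the file headers, and no read counts per gene were used.

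From these values log2(RPKM + 1) was tested with limma 3.58.1 in R 4.3.3 (trended variance), on 12195 of 17684 features with at least 1 RPKM in at least 2 samples. The model had 1 mean for each of 16 groups and 12 residual degrees of freedom, and the spread of a lone sample was taken from the groups of 2. For the average over the 8 times, treatment and time were fitted as additive terms with 19 residual degrees of freedom. P-values were two-sided and adjusted by Benjamini-Hochberg over all tested features, with a threshold of 0.05. A fold on this scale understates the change of low genes. The script was tested on simulated data.

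The members and lists were chosen with earlier results of these data known. Of 283 list entries 215 matched the table, 1 of them by a synonym. Each list is described by its counts. The text names at most its 2 largest positive and 2 largest negative differences that passed in each window, and the 3 genes with the highest r for each member. Outside that rule it names DUSP4 and SPRED1, which did not pass, DUSP6 and DUSP7, chosen after their values were seen, and some listed genes without a row. Replicate numbers were checked for pairing. The differences between replicates 2 and 1 correlated between arms with r = 0.307, 0.291, 0.105, 0.478 and 0.409 at 0, 24, 48, 144 and 168 h, so blocked fits are quoted where they change a call. Alternatives were a pseudocount of 0.1, no filter on low values, no variance trend, median-of-ratios rescaling, 2 replicate blocks, fits of only the compared samples, other windows, and leaving out each library.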

Additional observations from a re-analysis of the deposited data

Results flagged for a closer look

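The effect of treatment differed between early and late recovery for 3 genes by a direct test of the difference. The late less early difference in log2(RPKM + 1) was −1.97 for BTG2, −1.76 for EGR1 and −0.78 for JUN. The change from 0 to 24 h differed between treated papillae and controls by 2.49 for BTG2 and by 2.13 for EGR1. A test of any change of the treatment effect over the 8 times gave F = 11.55 for BTG2 and F = 8.31 for EGR1. These comparisons share samples. Their causes were not tested.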

How the results depend on the processing

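The early calls of EGR1, BTG2 and JUN at 0 to 48 h and their late less early differences kept their direction and call under every alternative run, and so did BTG2 at 24 and 48 h and EGR1 at 24 h. Counts of the 4 genes called changed as follows. At 24 h the count of 3 was 2 with no filter on low values, after rescaling, with only the compared samples and without 18 single libraries. In controls from 0 to 24 h the count of 2 was 3 without control replicate 1 at 24 h, and in late against early treated papillae the count of 3 was 4 with either block and without 3 single libraries. For any change in controls, and for late controls against 24 and 48 h, the count of 2 was 3 with a block within each time and without control replicate 1 at 24 h, and for late treated papillae against 24 and 48 h the count of 3 was 4 with that block. Over all times the count of 1 became 0 with no filter on low values, after rescaling and with either replicate block, 2 when each time counted equally, and 0 to 2 without single libraries. At 120 to 168 h the count of 0 became 1 with a replicate block within each time. In late against early controls it became 2 after rescaling and with that block, and 1 to 2 without single libraries. In treated papillae from 0 to 24 h that block gave 1. The difference between arms in that step gave 1 with no filter on low values and 1 to 2 without single libraries. At 0 h the count was 0 with no filter and after rescaling, and 0 to 1 without single libraries. At 48 h it was 3 with only the compared samples and 1 to 2 without single libraries. At 72 h it was 0 with only the compared samples and 0 to 2 without single libraries. At 144 h it was 1 after rescaling, with the sample number as a block and without 72, 96 and 120 h, 2 with a block within each time, and 0 to 1 without single libraries. For any change in treated papillae it was 2 with no filter and with only the treated samples, and 2 to 4 without single libraries. For any change of the effect it was 3 without either control at 24 h and 4 with a block within each time, as it was for treated papillae from 0 to 168 h. In controls from 0 to 168 h it was 0 to 1 without single libraries. Apart from these and the blocked values printed beside results, the replicate block changed no other call.

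Values that did not pass and changed sign were mostly those of FOSL2. It was 0.015 over all times with equal weights, −0.11 after rescaling and −0.13 in narrower windows at 0 to 48 h, −0.16 at 0 h after rescaling, and 0.034, 0.017 and 0.12 at 120 h after rescaling and with the 2 blocks. Its late control change from 24 and 48 h was −0.034 after rescaling, −0.026 with the sample number and −0.062 with a block within each time. EGR1 was −0.046 at 120 h with the sample number as a block and 0.030 at 168 h after rescaling. Without single libraries FOSL2 ranged from −0.085 to 0.036 over all times, −0.043 to 0.056 at 0 to 48 h, −0.13 to 0.033 in late against early controls, −0.076 to 0.087 at 0 h, −0.30 to 0.12 at 120 h, −0.34 to 0.14 at 168 h and −0.070 to 0.089 in late controls against 24 and 48 h. JUN from 0 to 24 h ranged from −0.36 to 0.67 in controls, −0.19 to 0.32 in treated papillae and −0.61 to 0.42 between arms. EGR1 ranged from −0.044 to 0.43 at 0 h, −0.051 to 0.21 at 120 h and −0.57 to 0.51 at 168 h. BTG2 ranged from −0.0055 to 0.70 at 0 h, −0.59 to 0.092 at 168 h and −0.35 to 0.33 in controls from 0 to 168 h. The causes were not tested. Groups of 1 or 2 samples limit every single-time value.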
